A study of Mus musculus with 11 samples.

Results

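Collagens are extracellular proteins built from chains that wind in groups into a triple helix. Here they are the mouse genes whose symbol has the form Col, a type number, a and a chain number. Of 44 such symbols among the 23238 measured, 42 reached a normalized count of 1 in 3 or more libraries and form the group described, out of 18248 genes that passed the same filter. They comprise 11 chains of fibrillar collagens, 8 chains of basement membrane collagens and 23 other collagens. Col9a1 and Col26a1, the remaining symbols, fell outside, each reaching that count in only 1 library (1.02 on the log2 scale). The members nearest to the threshold were Col13a1, which reached the count in 6 libraries, and Col2a1 and Col9a2, each in 7.

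Fibrillar collagens (types I, III and V foremost) form the banded fibrils that bear tension in connective tissue, and type V chains sit inside type I fibrils and limit their diameter. Type IV chains form the sheet-like network of basement membranes beneath endothelium and around smooth muscle, with types XV and XVIII as associated proteoglycans. Type VI collagen forms beaded filaments around cells, and fibril-associated collagens attach to the surface of fibrils. In the corpus cavernosum, the erectile tissue of the penis, fibrillar collagen makes up much of the wall around the blood spaces.

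The 11 libraries came from cells labelled mouse cavernous endothelial cells. The media were high glucose+Hsp70 (4 libraries), high glucose (4 libraries) and normal glucose (3 libraries), each kept for 5 days in M199 medium with serum and heparin. Hsp70 is a heat shock protein that helps other proteins fold. The labels give no glucose concentration, no dose or form of Hsp70, no strain or age, and do not say whether replicates came from separate cultures or animals, so p-values measure the spread between these libraries, which may be technical. The file names carry a set number: set 2 holds high glucose+Hsp70 replicate 1 and high glucose replicate 1, set 3 holds replicate 2 of both and normal glucose replicate 1, set 4 holds replicate 3 of both and normal glucose replicate 2, and set 5 holds replicate 4 of both and normal glucose replicate 3. What a set stands for is not given in the sources used here.

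The 3 libraries of set 3 stood apart from the other 8. Summed normalized counts of 10 endothelial markers were 1693 to 1871 in set 3 and 199 to 407 outside it, against a library total of 24.8 to 27.8 M. The markers Pecam1 and Cldn5 were at 8.86 to 9.07 and 4.49 to 5.01 on the log2 scale in set 3, against 2.68 to 4.51 and 0 to 0.24 in the other 8 libraries. Of the 10 markers, 9 were higher in set 3 (limma, adjusted p under 0.05), and Tek did not pass, at 5.22 to 5.89 in set 3 and 5.09 to 6.44 outside it. Cdh5 was at 9.01 to 9.52 in set 3 and 5.68 to 8.26 outside it. Cldn5 and Robo4 were at 0 in both set 2 libraries and Tie1 in 1 of them, and undetected genes were written differently in sets 4 and 5. The 8 fibroblast markers summed to 229932 to 300793 in set 3 and 91613 to 135297 outside it. Dcn was the highest of them in set 3, at 17.08 to 17.63 against 15.17 to 16.02 outside it. Pdgfra, Fbln1, Mfap5 and Dpt overlapped, with Pdgfra at 14.98 to 15.41 in set 3 and 14.84 to 15.64 outside it.

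Type IV collagen genes lie in head-to-head pairs. Both members of the pairs Col4a1 with Col4a2 and Col4a5 with Col4a6 differed between set 3 and the other sets, so the windows around their starts are shown first (250 bases before to 50 after the start, 5′ to 3′ on each gene's own strand, from RefSeq, GRCm38.p6). For Col4a1 (chr8:11312777-11313076, minus strand) and Col4a2 (chr8:11312555-11312854, plus strand) the capitals mark the 78 bases that both windows share on opposite strands.
Col4a1: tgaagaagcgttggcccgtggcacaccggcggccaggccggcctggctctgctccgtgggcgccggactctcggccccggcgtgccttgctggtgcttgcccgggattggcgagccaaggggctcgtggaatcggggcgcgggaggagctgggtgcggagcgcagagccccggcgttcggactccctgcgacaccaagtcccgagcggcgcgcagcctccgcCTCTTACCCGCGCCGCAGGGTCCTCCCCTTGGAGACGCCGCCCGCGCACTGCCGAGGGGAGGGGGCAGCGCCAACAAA
Col4a2: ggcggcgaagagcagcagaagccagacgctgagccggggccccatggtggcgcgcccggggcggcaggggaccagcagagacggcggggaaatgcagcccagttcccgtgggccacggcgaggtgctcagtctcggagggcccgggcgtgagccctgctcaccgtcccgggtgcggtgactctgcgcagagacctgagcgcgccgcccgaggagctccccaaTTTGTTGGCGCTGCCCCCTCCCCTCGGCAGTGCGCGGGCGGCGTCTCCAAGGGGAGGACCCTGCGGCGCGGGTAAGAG
In GENCODE M21 the gene bodies of this pair overlap by 22 bases, and the RefSeq starts are 21 bases apart. For Col4a5 (chrX:141475169-141475468, plus strand) and Col4a6 (chrX:141474027-141474326, minus strand), whose gene bodies lie 1308 bases apart, capitals mark matches to CCAAT and GGGCGG on either strand.
Col4a5: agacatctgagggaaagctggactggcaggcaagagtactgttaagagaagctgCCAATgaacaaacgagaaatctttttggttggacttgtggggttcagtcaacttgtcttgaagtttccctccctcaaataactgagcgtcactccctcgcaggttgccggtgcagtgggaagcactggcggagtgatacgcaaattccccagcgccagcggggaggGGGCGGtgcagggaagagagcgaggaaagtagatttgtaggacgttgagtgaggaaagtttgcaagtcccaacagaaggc
Col4a6: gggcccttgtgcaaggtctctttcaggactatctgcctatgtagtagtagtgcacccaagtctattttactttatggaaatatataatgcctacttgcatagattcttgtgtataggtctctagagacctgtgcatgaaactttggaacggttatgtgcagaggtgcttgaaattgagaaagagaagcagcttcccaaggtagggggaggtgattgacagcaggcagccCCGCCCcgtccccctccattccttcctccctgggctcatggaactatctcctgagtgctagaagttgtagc
Of the 36 windows found for 34 members, 63.9% held GGGCGG on either strand, against 35.7% of all 32851 windows. CCAAT was found in 33.3% of the members' windows and 37.4% of all, and TATAAA in 13.9% and 13.6%. A match is a description of the letters, not a site.

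Collagen transcripts took 0.639% to 1.11% of all normalized counts in a library. Per kilobase of exon, Col3a1 had the highest median level over the 11 libraries, 4494 normalized counts per kb. Next came Col6a1 (3428), Col1a1 (3152), Col6a3 (3066), Col1a2 (2706) and Col4a1 (1877), on the same scale. Col5a1 followed at 1627, Col16a1 at 1311 and Col4a2 at 1224 normalized counts per kb. These 9 genes were fibrillar, type VI and type IV chains and the fibril-associated Col16a1. Exon length is the union of all annotated exons, so a gene with long, rarely used exons is placed too low. At the low end, 21 members had a median normalized count under 100 and 7 of them under 10.

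**Figure D1:**
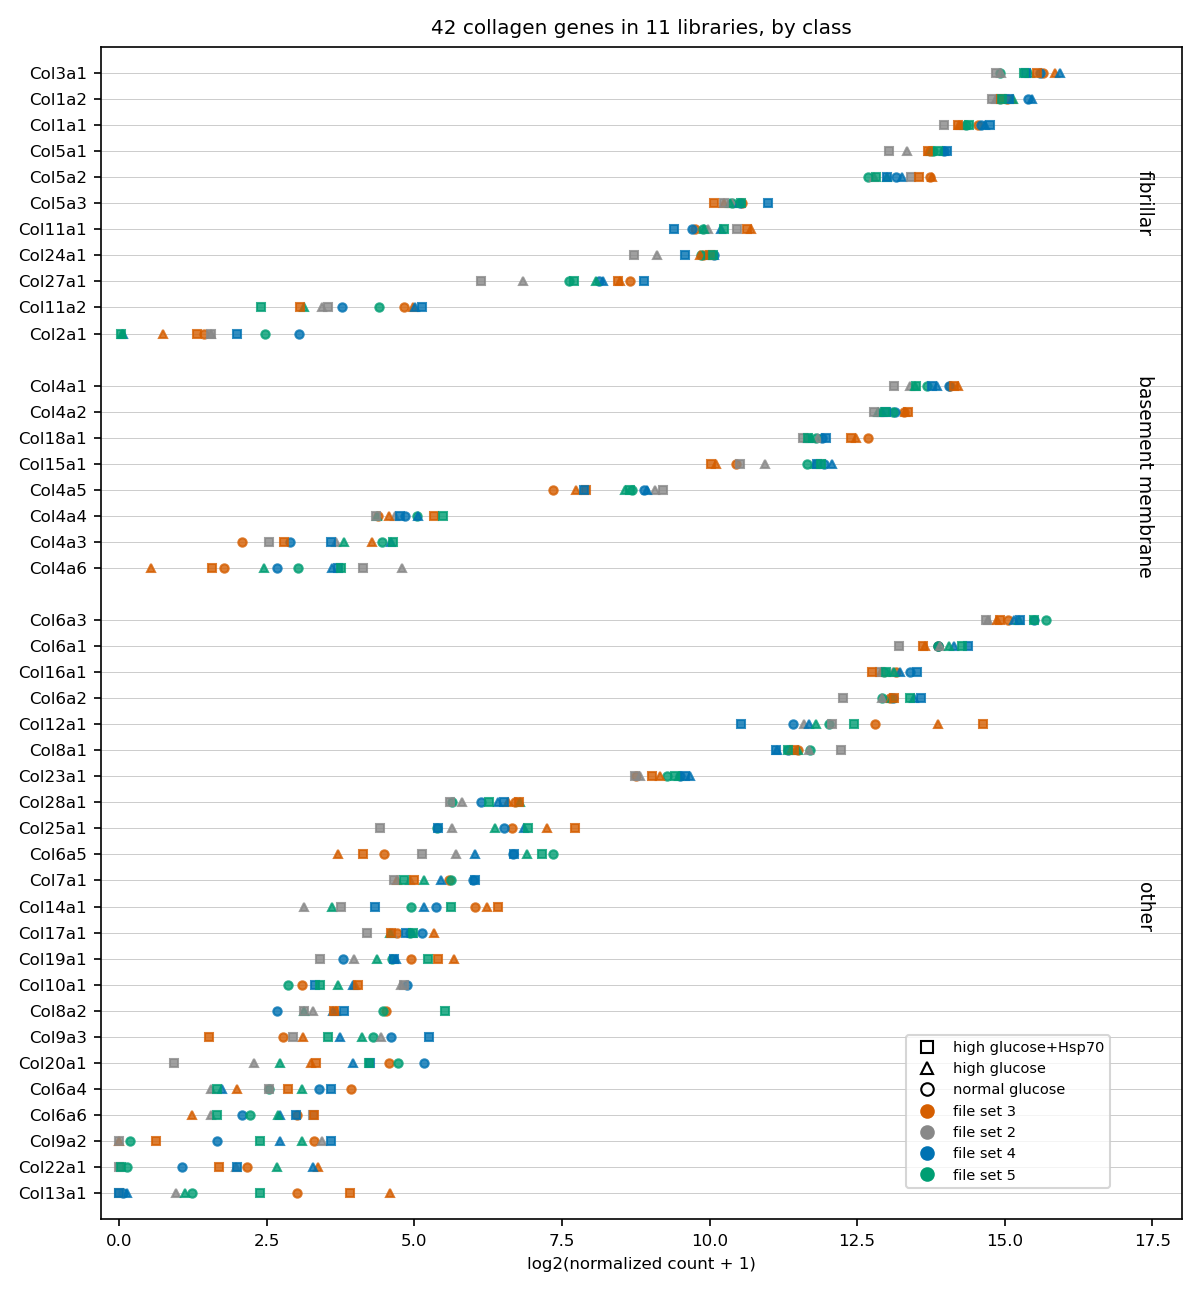
Each row is a collagen gene and each point a library, on the log2(normalized count + 1) scale, grouped by class and sorted by mean. Symbols give the medium and colours the file set. The 3 orange points of set 3 lie to the right of the other 8 for Col12a1 and Col18a1 and to the left for Col15a1 and Col6a5.

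Among the fibrillar genes, Col3a1, the chain of type III collagen, was at 14.85, 15.54, 15.35 and 15.33 log2 units in high glucose+Hsp70 replicates 1 to 4. It was at 14.93, 15.85, 15.94 and 15.43 in high glucose replicates 1 to 4 and at 15.65, 15.59 and 14.92 in normal glucose replicates 1 to 3. The media overlapped throughout, with both set 2 libraries near the bottom. Col1a2, the α2 chain of type I collagen, was at 14.79, 14.94, 15.07 and 14.95 in high glucose+Hsp70, at 14.85, 15.12, 15.46 and 15.13 in high glucose and at 15.04, 15.39 and 14.92 in normal glucose. Col1a1, its α1 partner, was at 13.96, 14.20, 14.76 and 14.40 in high glucose+Hsp70, at 14.25, 14.23, 14.66 and 14.33 in high glucose and at 14.55, 14.60 and 14.34 in normal glucose. Both type I chains overlapped between all 3 media, with their highest values in set 4. Col5a1, a type V chain, was at 13.05, 13.70, 14.03 and 13.87 in high glucose+Hsp70, at 13.34, 13.72, 13.98 and 13.75 in high glucose and at 13.73, 13.97 and 13.79 in normal glucose. The 2 set 2 libraries were the lowest for Col5a1, and the media overlapped.

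Chains that assemble together were also compared per kb of exon. The ratio of Col1a1 to Col1a2 averaged 1.25 ± 0.20 in high glucose+Hsp70, 1.11 ± 0.10 in high glucose and 1.24 ± 0.13 in normal glucose (SD, n = 4, 4 and 3). Over all libraries it ran between 1.02 and 1.52, whereas Col3a1 over Col1a1 ran between 1.00 and 2.05. Ranges overlapped between all 3 media for both ratios.

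The remaining fibrillar chains were lower. Col5a2, the second type V chain, lies 24.6 kb from Col3a1 on chromosome 1, with its 3′ end facing that of Col3a1. It was at 13.41, 13.54, 13.01 and 12.83 in high glucose+Hsp70, at 12.79, 13.78, 13.26 and 13.01 in high glucose and at 13.73, 13.15 and 12.69 in normal glucose. Its 3 highest libraries were those of set 3. Col5a3, Col11a1, Col24a1 and Col27a1 ranged between 6.13 and 10.99 log2 units over all libraries, and Col11a2 and Col2a1, chains of cartilage fibrils, between 0.03 and 5.13.

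Of the basement membrane genes, Col4a1 and Col4a2, which make the common type IV network, were the highest. Col4a1 was at 13.12, 14.14, 13.77 and 13.50 in high glucose+Hsp70, at 13.39, 14.21, 13.84 and 13.48 in high glucose and at 14.07, 14.06 and 13.69 in normal glucose. Col4a2 was at 12.78, 13.35, 12.98 and 12.97 in high glucose+Hsp70, at 12.86, 13.31, 12.93 and 12.86 in high glucose and at 13.29, 13.13 and 13.10 in normal glucose. For both genes the 3 libraries of set 3 were the highest of the 11, and the media overlapped. Per kb, Col4a1 over Col4a2 averaged 1.37 ± 0.20 in high glucose+Hsp70, 1.49 ± 0.20 in high glucose and 1.51 ± 0.18 in normal glucose (SD, n = 4, 4 and 3), so the ratio overlapped as well.

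Col18a1, whose C-terminal fragment is endostatin, was at 11.58, 12.39, 11.97 and 11.67 in high glucose+Hsp70, at 11.84, 12.48, 11.67 and 11.72 in high glucose and at 12.68, 11.91 and 11.80 in normal glucose. Col15a1, a related proteoglycan of the outer basement membrane, was at 10.52, 10.02, 11.83 and 11.89 in high glucose+Hsp70, at 10.94, 10.11, 12.08 and 11.79 in high glucose and at 10.45, 11.95 and 11.65 in normal glucose. These relatives differed in opposite directions in set 3, which was highest for Col18a1 and lowest for Col15a1. The set 2 libraries were also low for Col15a1, at 10.52 and 10.94, and were not raised for Col18a1, at 11.58 and 11.84. Within every set the media lay closer together for Col15a1 than set 3 lay to sets 4 and 5.

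The minor type IV chains were far lower. Col4a5 was at 9.21, 7.90, 7.88 and 8.65 in high glucose+Hsp70, at 9.07, 7.74, 8.93 and 8.56 in high glucose and at 7.35, 8.90 and 8.68 in normal glucose. Col4a6, its neighbour and partner in a network of smooth muscle basement membranes, was at 4.13, 1.58, 3.71 and 3.76 in high glucose+Hsp70, at 4.79, 0.55, 3.61 and 2.45 in high glucose and at 1.77, 2.67 and 3.04 in normal glucose. Col4a6 had its 3 lowest values in set 3, and Col4a5 3 of its 4 lowest. Col4a3, an α3 chain best known from the kidney glomerulus, was at 2.54, 2.79, 3.59 and 4.65 in high glucose+Hsp70, at 3.67, 4.29, 4.60 and 3.82 in high glucose and at 2.09, 2.90 and 4.46 in normal glucose. Col4a4, whose start lies 71 bases from that of Col4a3 on chromosome 1, ranged between 4.35 and 5.49. An antisense transcript, C430014B12Rik, overlaps 5.65% of the exons of Col4a3, and whether the counting used strand is not given in the sources used here.

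**Figure D2:**
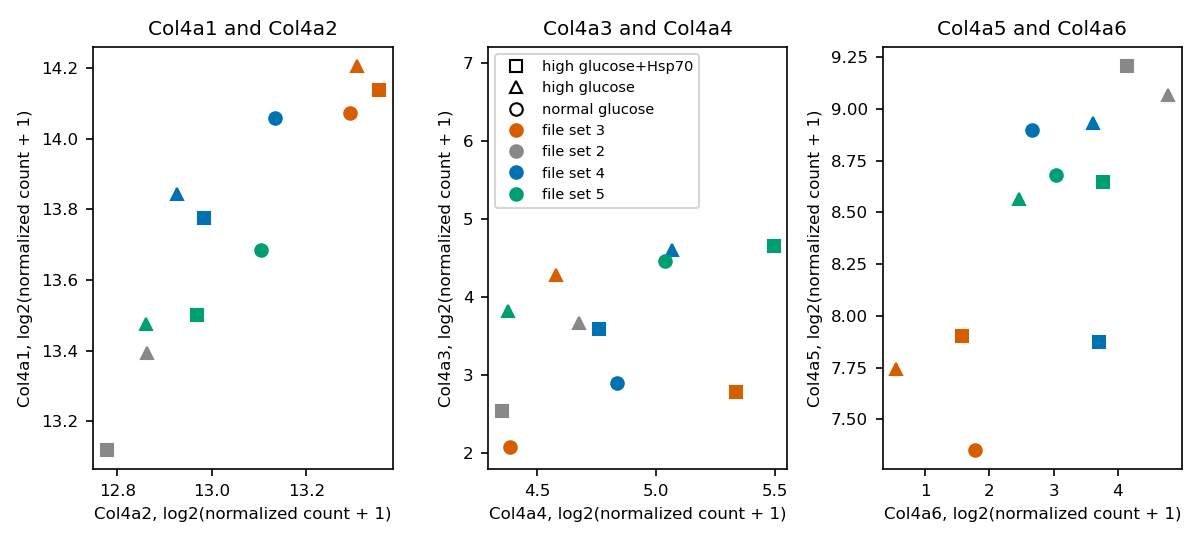
Each panel plots the members of a head-to-head type IV pair against each other, on the log2(normalized count + 1) scale, and each point is a library. Set 3 (orange) has the highest Col4a1 and Col4a2 values of the 11 libraries and the lowest Col4a6 values, 0.55 to 1.77, while Col4a3 and Col4a4 show no such grouping.

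Of the other collagens, the type VI chains Col6a3, Col6a1 and Col6a2 and the fibril-associated Col16a1 were the highest. Col6a3 was at 14.68, 14.92, 15.25 and 15.50 in high glucose+Hsp70, at 14.72, 14.86, 15.16 and 15.24 in high glucose and at 15.05, 15.49 and 15.69 in normal glucose. Col6a1 was at 13.21, 13.62, 14.38 and 14.28 in high glucose+Hsp70, at 13.89, 13.65, 14.14 and 14.06 in high glucose and at 13.87, 13.87 and 13.87 in normal glucose. Col6a1 was thus nearly level in normal glucose and spread over more than a log2 unit in high glucose+Hsp70, with the media overlapping. Col6a2 was at 12.26, 13.13, 13.58 and 13.39 in high glucose+Hsp70, at 12.91, 13.07, 13.46 and 13.09 in high glucose and at 13.05, 13.11 and 12.92 in normal glucose. Col16a1 was at 12.89, 12.75, 13.52 and 12.98 in high glucose+Hsp70, at 13.11, 12.91, 13.23 and 13.12 in high glucose and at 13.16, 13.39 and 12.95 in normal glucose. Both overlapped between media. Per kb, Col6a1 exceeded Col6a2 in every library, by a ratio of 2.67 to 3.76, and Col6a3 over Col6a1 was 0.65 to 1.29.

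Split by class and medium, the shares of normalized counts also overlapped. Fibrillar genes took 0.453% ± 0.074 in high glucose+Hsp70, 0.524% ± 0.124 in high glucose and 0.508% ± 0.108 in normal glucose (SD, n = 4, 4 and 3). Basement membrane genes took 0.108% ± 0.027 in high glucose+Hsp70, 0.114% ± 0.024 in high glucose and 0.128% ± 0.020 in normal glucose. Other collagens took 0.314% ± 0.068 in high glucose+Hsp70, 0.299% ± 0.038 in high glucose and 0.329% ± 0.023 in normal glucose. No difference between media exceeded the larger SD of the groups. The sets differed more: all 42 genes together took 0.994% to 1.03% in set 3, 0.639% and 0.705% in set 2, 0.965% to 1.11% in set 4 and 0.822% to 0.898% in set 5. In such bulk samples fewer cells of a type and less RNA per cell cannot be told apart.

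**Figure D3:**
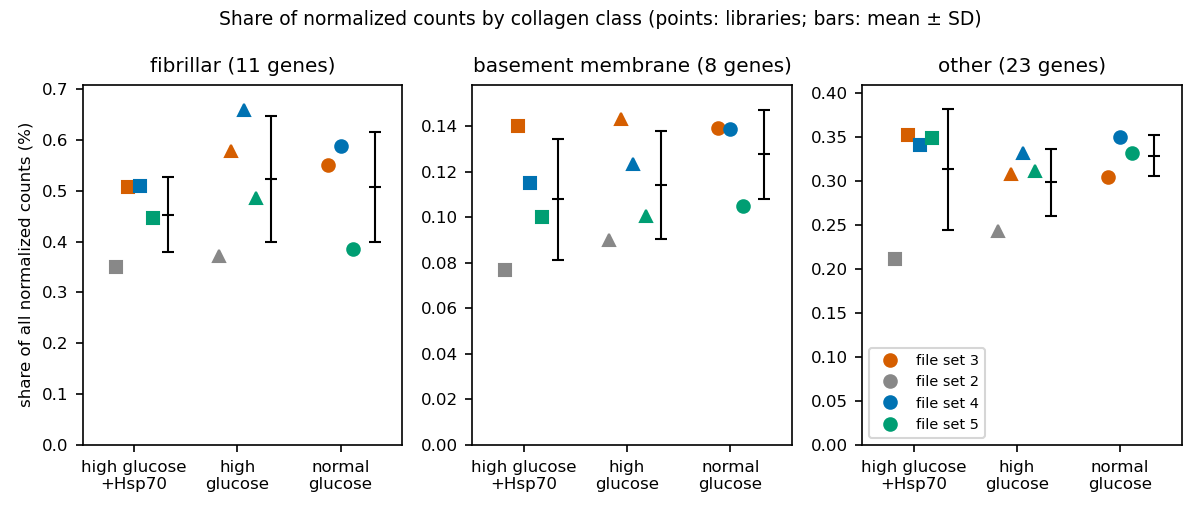
Points give each library's share of all normalized counts (%) taken by a collagen class, coloured by file set, and bars give mean ± SD of a medium. The grey points of set 2, present only in the high glucose media, are the lowest in every class.

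High glucose was compared with normal glucose to ask how the glucose level changed collagen transcripts. None of the 42 members was called (limma, adjusted p under 0.05), where 0% of all 18248 genes were called. At an unadjusted p under 0.05 there were 3 members, against 1.01% of all genes. The median difference over the members was -0.08 log2 units, with 18 above 0 and 24 below, and the median over all genes was -0.01. Set 2, which has no normal glucose library, enters it on the high glucose side only. Within sets 3, 4 and 5 the median over the members was -0.0005, 0.07 and -0.07. The 95% intervals of all 12 leading genes, 4 per class, spanned 0. For Col1a1 the interval was -0.56 to 0.31, for Col3a1 -0.45 to 0.75, for Col4a1 -0.77 to 0.35 and for Col6a3 -0.92 to 0.09. Differences within these intervals are compatible with these libraries.

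The members with the smallest p in that comparison were all low genes. Col2a1, the chain of cartilage type II collagen, was at 1.57, 0.75, 0.07 and 0.05 in high glucose replicates 1 to 4 and at 1.44, 3.05 and 2.47 in normal glucose. The groups overlapped through the set 3 library of normal glucose, and the difference was -1.71 ± 0.63 log2 units (SE, unadjusted p = 0.0188, limma adjusted p = 1.00). Within sets 3, 4 and 5 it was -0.69, -2.98 and -2.42. Col22a1, a fibril-associated collagen of tissue junctions, was at 1.98, 3.37, 3.28 and 2.67 in high glucose and at 2.17, 1.07 and 0.14 in normal glucose. It also overlapped, with a difference of 1.70 ± 0.69 (SE, unadjusted p = 0.0290, limma adjusted p = 1.00) and within-set differences of 1.20, 2.21 and 2.54.

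Col20a1, another fibril-associated chain, was at 2.29, 3.25, 3.96 and 2.72 in high glucose and at 4.58, 5.16 and 4.73 in normal glucose. Its groups did not overlap, and the difference was -1.77 ± 0.73 (SE, unadjusted p = 0.0330, limma adjusted p = 1.00). Within sets 3, 4 and 5 it was -1.33, -1.19 and -2.01. Col6a4, a type VI chain, was at 1.56, 1.99, 1.75 and 3.11 in high glucose and at 3.94, 3.39 and 2.54 in normal glucose. That pair overlapped, with a difference of -1.19 ± 0.58 (SE, limma adjusted p = 1.00). Groups did not overlap for 3 members (Col20a1, Col7a1 and Col11a1), against 2.38% of all genes. For Col11a1 the nearest libraries of the groups, both of set 5, were only 0.002 log2 units apart.

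High glucose+Hsp70 was compared with high glucose alone to ask what Hsp70 changed. Again none of the 42 was called, where 0% of all genes were. At an unadjusted p under 0.05 there was 1 member, against 0.745% of all genes. The median difference was -0.04 log2 units (15 above 0 and 27 below), and 0.003 over all genes. No member had groups that did not overlap, against 0.608% of all genes. The 95% interval was -0.44 to 0.36 for Col1a1, -0.82 to 0.29 for Col3a1, -0.62 to 0.42 for Col4a1 and -0.38 to 0.56 for Col6a3.

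Col22a1 had the smallest p. It was at 0.00, 1.70, 2.00 and 0.04 in high glucose+Hsp70 and at 1.98, 3.37, 3.28 and 2.67 in high glucose. It was lower with Hsp70 in each of the 4 sets, by 1.27 to 2.63 log2 units, while the groups as wholes overlapped. Its level was low, with a median of 1.98 log2 units over all libraries, so these differences rest on few reads. Over the alternatives that tested Col22a1, its difference between the groups ran between -2.24 and -0.54. The difference was -1.89 ± 0.63 (SE, unadjusted p = 0.0116, limma adjusted p = 1.00). The high glucose libraries enter this comparison and the one with normal glucose, so the opposite signs of Col22a1 in the 2 are not independent. Col6a6, a type VI chain, was at 3.29, 3.31, 3.00 and 1.66 in high glucose+Hsp70 and at 1.56, 1.25, 2.72 and 2.69 in high glucose. Its groups overlapped, with a difference of 0.76 ± 0.53 (SE, limma adjusted p = 1.00). Col1a2 and Col4a3, given above by library, differed by -0.20 ± 0.17 and -0.70 ± 0.58 (SE, limma adjusted p = 1.00 for each). Col1a2 was lower with Hsp70 in each of the 4 sets, and among the members so were Col3a1, Col22a1 and Col23a1. The share of all genes with such agreement was not examined, so it is no separate support for genes picked by their p.

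High glucose+Hsp70 against normal glucose gave the same count, 0 of 42, where 0% of all genes were called. At an unadjusted p under 0.05 there was 1 member, against 0.975% of all genes. The median difference was -0.12 log2 units (17 above 0 and 25 below), and -0.004 over all genes. Set 2 enters it on the high glucose+Hsp70 side only. Within sets 3, 4 and 5 the median over the members was -0.11, 0.03 and 0.11, so the sets did not share a direction. Col20a1 was at 0.94, 3.34, 4.25 and 4.24 in high glucose+Hsp70 and at 4.58, 5.16 and 4.73 in normal glucose. These groups did not overlap, which held for 1.72% of all genes, and the difference was -1.63 ± 0.73 (SE, unadjusted p = 0.0461, limma adjusted p = 1.00). Within sets 3, 4 and 5 it was smaller, at -1.24, -0.91 and -0.50. The lowest value, 0.94, is from set 2, which has no normal glucose library. Col7a1, the anchoring fibril collagen of skin, was at 4.66, 5.00, 6.03 and 4.83 in high glucose+Hsp70, at 4.93, 4.71, 5.45 and 5.17 in high glucose and at 5.59, 5.99 and 5.63 in normal glucose. High glucose+Hsp70 reached above normal glucose in a single library of set 4, and every high glucose library was below normal glucose. Col11a1, a fibrillar chain that nucleates thin fibrils, was at 10.47, 10.64, 9.40 and 10.24 in high glucose+Hsp70, at 9.97, 10.70, 10.20 and 9.90 in high glucose and at 9.75, 9.70 and 9.90 in normal glucose. The difference of high glucose+Hsp70 from normal glucose was -0.61 ± 0.35 for Col7a1 and 0.41 ± 0.28 for Col11a1 (SE, limma adjusted p = 1.00 for each).

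**Figure D4:**
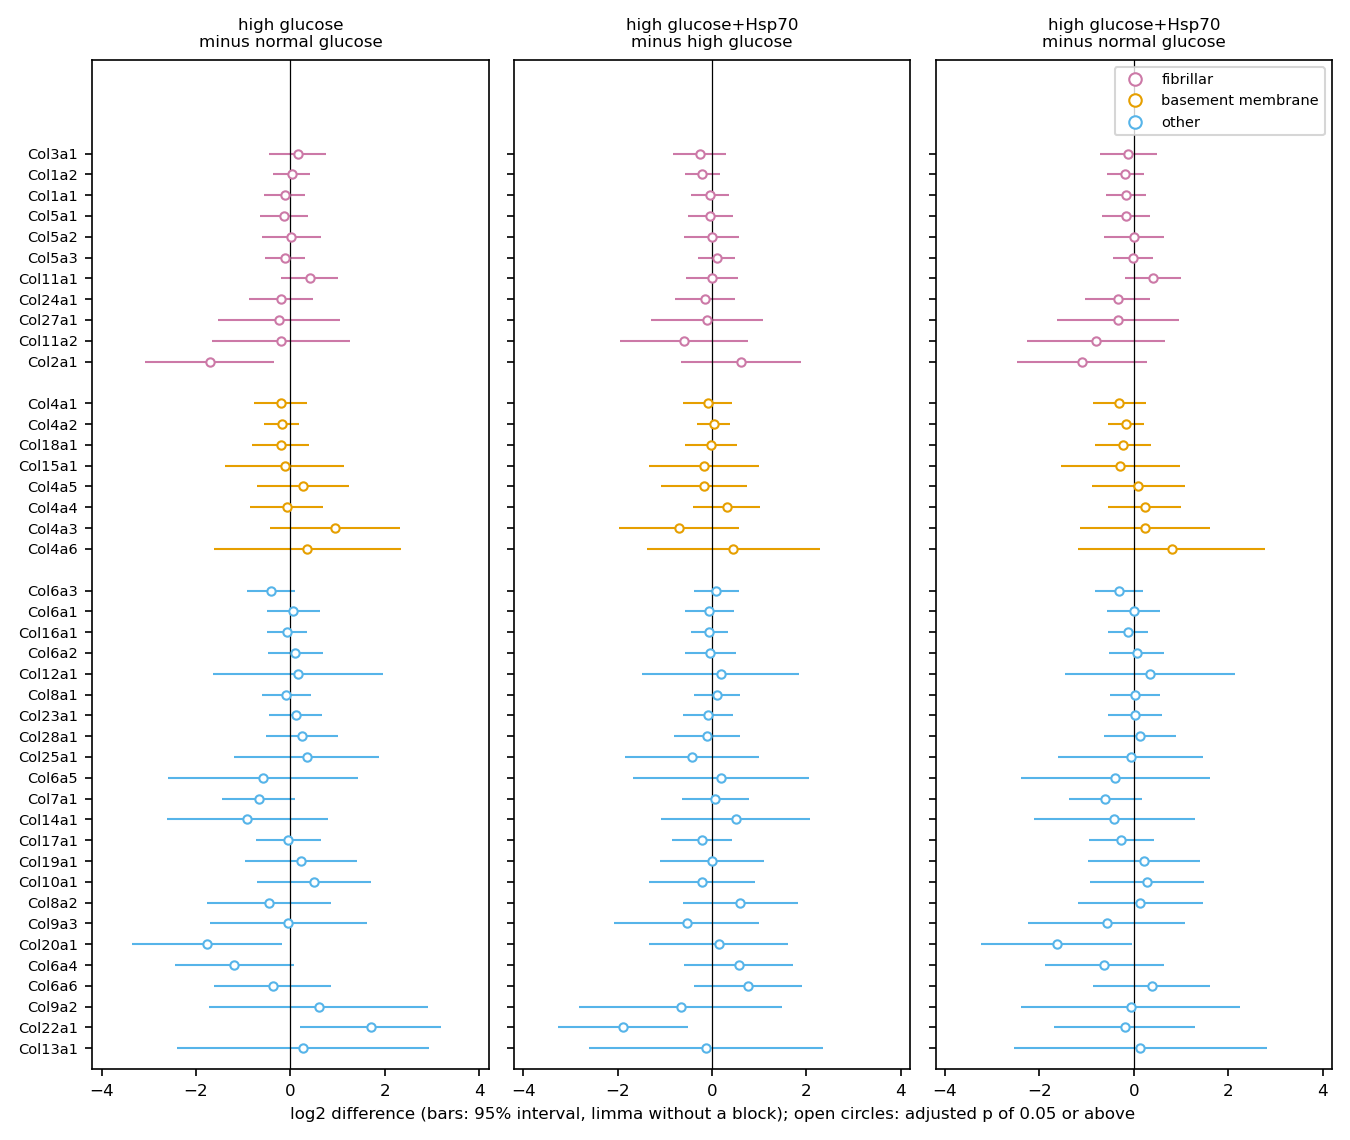
Points are log2 differences of the 42 members in the 3 comparisons of media, and bars are 95% intervals from limma. Intervals span 0 for all members but 3, 1 and 1 in the 3 panels, and no adjusted p was under 0.05.

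With the file set as a block, the count of called members stayed at 0 in all 3 comparisons, and without set 3 it was also 0. The blocked fit gave 5 members at an unadjusted p under 0.05 for high glucose against normal glucose, where 3.49% of all genes passed. It gave 1 member for high glucose+Hsp70 against high glucose (1.67% of all genes) and 1 against normal glucose (3.22% of all genes). None of the 60 genes that fold, process or bind collagen was called between media, where 0% of all genes were. In the fits without a block none of the 60 had an unadjusted p under 0.05, against 0.745% to 1.01% of all genes. So low a share leaves little room for any of the 60 to pass. No marker gene of any cell type examined was called between media.

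The file sets separated the members where the media did not. With the medium in the model, 15 of 42 members differed among sets (limma adjusted p under 0.05), where 11.9% of all genes did. At an unadjusted p under 0.05 there were 27 of 42, against 29.6% of all genes. By class the 15 were 4 of 11 fibrillar, 5 of 8 basement membrane and 6 of 23 other collagens. In set 3 against the mean of the other sets 14 members were called, 10 higher and 4 lower, where 12.7% of all genes were called, 8.21% higher and 4.48% lower. The 3 libraries of a set are not independent samples of it, so these p-values say nothing of the spread between sets, and the contrast was chosen with the difference known.

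Of the basement membrane genes 6 of 8 were called, 3 higher and 3 lower, and 2 of them (Col15a1 and Col18a1) without high glucose replicate 2. Col4a1 was at 14.14, 14.21 and 14.07 in high glucose+Hsp70, high glucose and normal glucose of set 3, against 13.12 to 14.06 in the other 8 libraries. Its difference was 0.56 ± 0.11 log2 units (SE, limma adjusted p = 0.00850). Col4a2 rose by 0.37 ± 0.10 (limma adjusted p = 0.0370) and Col18a1 by 0.74 ± 0.11 (limma adjusted p = 0.00214), with set 3 at 12.39 to 12.68 for Col18a1 and the rest at 11.58 to 11.97. All 3 had every set 3 library above the other 8.

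Col15a1 was at 10.02, 10.11 and 10.45 in set 3, against 10.52 to 12.08 in the other 8 libraries, a difference of -1.30 ± 0.13 (SE, limma adjusted p = 0.000220). Col4a6 was at 1.58, 0.55 and 1.77 in set 3, against 2.45 to 4.79 elsewhere, a difference of -2.31 ± 0.45 (SE, limma adjusted p = 0.00829). With an offset of 10 in place of 1 the difference of Col4a6 was -0.91 (limma adjusted p = 0.0128). Both genes fell without overlap. Col4a5 was at 7.90, 7.74 and 7.35 in set 3, against 7.88 to 9.21 elsewhere, and fell by 1.12 ± 0.23 (SE, limma adjusted p = 0.0108) with an overlap of 1 library. The neighbours Col4a1 and Col4a2 were both called higher, the neighbours Col4a5 and Col4a6 both lower, and Col4a3 and Col4a4 were not called. Col4a2 was not called in 12 of 19 alternatives. Whether the arrangement or sequence of the starts has a part in these differences was not tested.

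**Figure D5:**
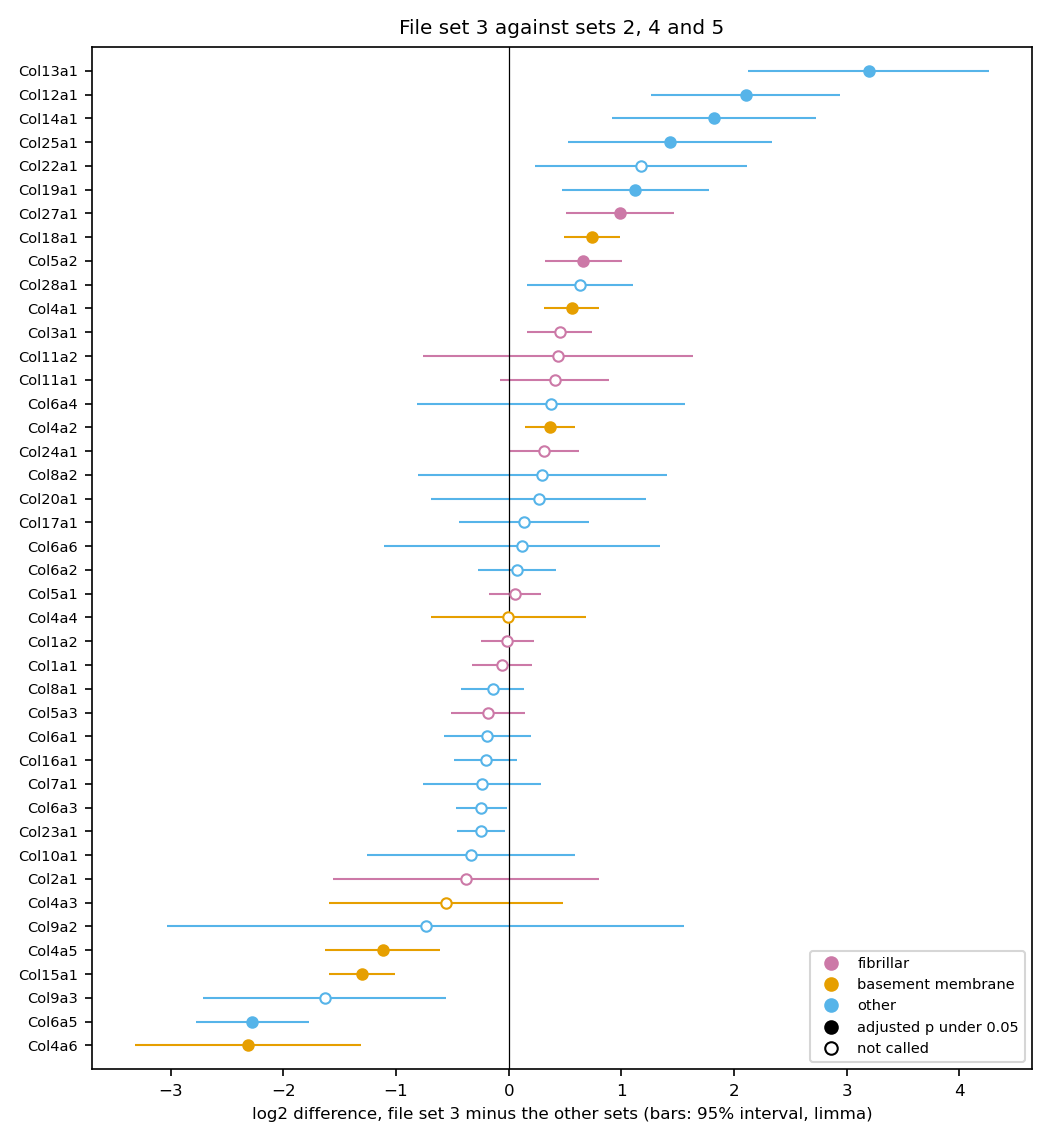
Points are log2 differences of set 3 from the mean of sets 2, 4 and 5 for the 42 members, bars are 95% intervals from limma, and filled points have an adjusted p under 0.05. Col13a1 lies at the top with 3.19 and Col4a6 at the bottom with -2.31, and type I chains lie near 0.

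Of the other collagens, 5 of 23 rose and 1 fell. Col13a1, a transmembrane collagen of cell adhesions, was at 3.92, 4.59 and 3.01 in set 3, against 0 to 2.38 (median 0.55) in the other 8 libraries. It had the largest difference of the 42, 3.19 ± 0.48 (SE, limma adjusted p = 0.00206). Its level was low, and with an offset of 10 in place of 1 the difference was 1.17. Col12a1, a fibril-associated collagen of tendon and fascia, was at 14.62, 13.88 and 12.80 in set 3, against 10.54 to 12.45 (median 11.74) elsewhere. It rose by 2.10 ± 0.37 (SE, limma adjusted p = 0.00647), with no overlap and a spread of 1.82 log2 units within set 3.

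Col14a1, a fibril-associated relative of Col12a1, was at 6.42, 6.23 and 6.02 in set 3, against 3.14 to 5.63 (median 4.64) elsewhere, and rose by 1.82 ± 0.40 (SE, limma adjusted p = 0.0162). Col25a1, a transmembrane collagen with a role in motor innervation of muscle in mice, was at 7.72, 7.25 and 6.65 in set 3, against 4.41 to 6.93 (median 6.01) elsewhere, and rose by 1.43 ± 0.40 (SE, limma adjusted p = 0.0479). Of these 4 genes only Col25a1 overlapped the other libraries. Col19a1 rose by 1.12 ± 0.29 (SE, limma adjusted p = 0.0336). Col6a5, a type VI chain, was at 4.13, 3.71 and 4.49 in set 3, against 5.13 to 7.35 (median 6.68) elsewhere, and fell by 2.27 ± 0.22 (SE, limma adjusted p = 0.000195). Its neighbours on chromosome 9, Col6a4 and Col6a6, were not called, nor were Col6a1, Col6a2 and Col6a3.

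Among fibrillar genes the called members were Col5a2, at 0.66 ± 0.15, and Col27a1, at 0.99 ± 0.21 (SE, limma adjusted p = 0.0201 and 0.0144). Col3a1 missed the threshold narrowly, at 0.45 with a 95% interval of 0.16 to 0.74 (limma adjusted p = 0.0501). For the type I chains the 95% intervals were -0.33 to 0.21 (Col1a1) and -0.25 to 0.23 (Col1a2). Values of set 3 did not overlap those of the other sets for 10 of the 42 members, against 12% of all genes.

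The count in set 3 rested in part on single libraries. Without high glucose replicate 2 it was 4 (Col13a1, Col15a1, Col18a1 and Col6a5), without high glucose+Hsp70 replicate 2 it was 7, and without the filter on low genes 8. Col18a1 and Col6a5 were called in each of the 19 alternatives tried, and Col13a1 in the 18 that tested it. Col15a1 was lost only against set 2 alone, where its difference was -0.56 (limma adjusted p = 0.0842), while Col4a2 and Col25a1 were each lost in 12 alternatives. Against set 2 alone the difference was 0.84 for Col4a1, 1.83 for Col19a1, 2.37 for Col25a1, 2.10 for Col27a1 and -1.43 for Col6a5. In that comparison 15 members were called, 12 higher and 3 lower, where 10.9% of all genes were called, 6.84% higher and 4.09% lower.

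Markers of several cell types moved with set 3. Called higher there were 9 of 10 endothelial, 5 of 8 fibroblast, 6 of 7 leukocyte, 4 of 6 Schwann cell and 2 of 6 smooth muscle markers, and of 6 pericyte markers 3 were higher and 1 lower. Summed normalized counts of leukocyte markers were 4582 to 5409 in set 3 and 532 to 870 outside it, and those of Schwann cell markers 3516 to 7392 and 951 to 2512. For smooth muscle markers the sums were 4524 to 6976 in set 3 and 3236 to 5608 outside, and for pericyte markers 8052 to 9003 and 5768 to 7120. By medium, the endothelial sums were 199 to 1866 in high glucose+Hsp70, 217 to 1871 in high glucose and 239 to 1693 in normal glucose. The part of these markers in the collagen differences of set 3 was not tested.

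Set 4 against set 5 gave 0 of 42 called, where 0% of all genes were. At an unadjusted p under 0.05 there were 8 members, against 15.2% of all genes. Over the members the median difference was 0.21 log2 units, with 30 above 0 and 12 below, and the median over all genes was -0.03. Col1a2, for example, differed by 0.30 with a 95% interval of 0.02 to 0.58 (limma adjusted p = 0.313).

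Genes that act on collagen were also examined in set 3 against the other sets. In all, 17 of 60 were called, 12 higher and 5 lower, where 12.7% of all genes were called, 8.21% higher and 4.48% lower. Of 23 genes for folding and modification inside the cell only P4ha2, a subunit of collagen prolyl 4-hydroxylase, was called. It was at 11.26, 11.36 and 11.56 in set 3, against 9.97 to 11.34 elsewhere, and rose by 0.70 ± 0.15 (SE, limma adjusted p = 0.0140). Of 13 maturation genes, Adamts2, an N-propeptidase of fibrillar procollagen, rose by 0.69 ± 0.13. Adamts14, a related protease, fell by 0.62 ± 0.14, and Loxl3, a cross-linking oxidase, fell by 0.60 ± 0.15 (SE, limma adjusted p = 0.00879, 0.0207 and 0.0288 for the 3).

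Of the 15 fibril-binding proteins 10 were called, where 12.7% of all genes were, with a median difference of 1.86 log2 units against -0.002 over all genes. Dcn and Lum, among these 10, are fibroblast markers as well. Prelp, a leucine-rich proteoglycan that links basement membrane and fibrils, was at 12.60, 12.24 and 12.27 in set 3, against 10.06 to 10.54 elsewhere. Postn, a matricellular protein that binds type I collagen, was at 10.72, 10.72 and 10.68, against 8.57 to 9.09, and Kera, a keratan sulfate proteoglycan, at 9.82, 9.81 and 8.86, against 6.15 to 8.15. The differences were 2.11 ± 0.10, 1.86 ± 0.11 and 2.35 ± 0.14 (SE), all without overlap. Dcn and Lum differed by 1.95 ± 0.19 and 2.36 ± 0.15 (SE). Fn1, the fibronectin gene, was at 17.37, 17.07 and 17.44 in set 3, against 17.92 to 18.69 elsewhere, and fell by 0.99 ± 0.12 (SE, limma adjusted p = 0.000770). Of 9 collagen receptors, Itga11, an integrin chain for fibrillar collagen, rose by 1.47 ± 0.26 and Lair1, an inhibitory receptor of leukocytes, by 2.70 ± 0.53. Mrc2, an endocytic collagen receptor, fell by 0.51 ± 0.12 (SE, limma adjusted p = 0.00507, 0.00880 and 0.0198 for the 3 receptors).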

How the data were processed

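RNA of 11 libraries was sequenced after a stranded SMARTer preparation from Trizol extracts, per the labels' protocols. TopHat, edgeR and mm10 are named, without versions, in the submitters' processing notes. The deposited values, 1 file a library, are log2 units, read from the values as log2(normalized count + 1). The kind of normalization is not given in the sources used here. Library totals were 24.8 to 27.8 M normalized counts. In sets 4 and 5 the same 11.8% of genes hold 0 and other undetected genes small values, whereas in sets 2 and 3 between 21.2% and 25.9% hold 0.

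Repeated symbols were reduced to the copy of highest mean (44 dropped). Genes that reached a normalized count of 1 in 3 or more libraries were fitted with limma 3.58.1 in R 4.3.3 (trended prior, robust variance, 3 group means in 1 model), with p-values adjusted by Benjamini-Hochberg over all 18248 genes and called under 0.05. File sets were compared in a model with set and medium. The fit was run on simulated data with a capped spread, independently drawn libraries and large added changes. That run therefore does not show how the fit performs at the spread and set differences of these libraries. Lengths and positions are from GENCODE M21, and all 44 symbols matched. Over all genes a log2 difference had a median SE of 0.287 for high glucose against normal glucose, which sets the precision.

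Samples of a set, numbered in the file names, deviated together most in set 3. Between high and normal glucose, correlations of deviations from the group means were 0.594 (set 3), 0.302 (set 4) and 0.285 (set 5). For high glucose+Hsp70 they were 0.0586 to 0.691 with high glucose and 0.0219 to 0.458 with normal glucose, so not every pair was over 0.1. Each group mean includes a set 3 library, so positive values outside set 3 are partly built in. High glucose of set 4 with normal glucose of set 5, which are of different sets, gave 0.137. These correlations therefore cannot show pairing outside set 3. The smallest mean absolute difference between 2 libraries was 0.330 log2 units, so none were copies.

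Values in every library are given for the 4 highest members of each class, the 4 members with the smallest p in each comparison of media, the 4 largest called rises and falls of set 3, and members of neighbouring pairs. Of each list of partner genes up to 3 were chosen by the smallest p, and further called ones were named after their values were seen. Members, lists and contrasts were chosen with earlier results of these data known. Of the partner genes listed, Gp6 was not tested. The values of 1 marker gene are not reported here. Alternatives covered the block, filter, scaling, offset, variance model and each library left out.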

Additional observations from a re-analysis of the deposited data

Results flagged for a closer look

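In 3 of 62 groups of 4 libraries examined (31 named genes in 2 media) the highest or lowest library lay far from the others by Dixon's criterion, and chance gives about 1 in 20. Col12a1 was at 13.88 log2 units in high glucose replicate 2, against 11.60 to 11.80 in the other high glucose libraries. Col4a2 was at 13.31 in high glucose replicate 2, against 12.86 to 12.93 in the others. Col4a6 was at 1.58 in high glucose+Hsp70 replicate 2, against 3.71 to 4.13 in the others. All 3 libraries belong to set 3. The genes examined include those named for their rise or fall in set 3, Col12a1 and Col4a6 among them. These groups are therefore no separate evidence on set 3, and 3 of 62 is near the share that chance gives.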

How the results depend on the processing

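The count of called collagen genes stayed at 0 between media in every alternative run, among them the replicate block by file set (0 in each comparison), the block by title number (0), leaving out set 3 with the block (0, added after the data were seen), array weights, other filters and scalings and each library left out. Libraries of the same title number in high and normal glucose came from different sets, with correlations of -0.357 to 0.137. For any difference among sets, 15 members became 8 without a filter and 8 without trend and robust variance, and 4 to 21 with a library left out. The 18 partner genes became 11 without a filter, 11 without trend and robust variance, and 10 to 28 with a library left out. For set 3 against the others, 14 members became 8 without a filter and 4 to 16 with a library left out, and 17 partner genes became 11 to 26. The difference of Col6a6 between high glucose+Hsp70 and high glucose reversed to -0.38 in sets 4 and 5 alone. The cause was not tested. Of the 12 leading genes 9 changed sign in some alternative for high against normal glucose, 10 for high glucose+Hsp70 against high glucose and 8 against normal glucose, with no call.

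Limits: file set 2 has no normal glucose library, undetected genes were written differently between sets, and members under 10 normalized counts rest on few reads.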
